A study of Bos taurus with 10 samples.

Results

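The genes ADIPOQ, RBP4, CFD and LEP encode adipokines, proteins that fat cells release into the blood. They were chosen by name, with earlier results of these data known. Every probe set of the array with exactly 1 gene symbol, that symbol being 1 of these 4, was kept. This gave 5 probe sets of 13292 with 1 symbol, and 4 genes of 9155. ADIPOQ, RBP4 and CFD had 1 probe set each and LEP had 2. Where a gene had several probe sets, the brightest stood for it.

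The samples were longissimus dorsi, a muscle that runs along the spine, from 10 Hanwoo, the Korean native cattle breed, measured on 10 Affymetrix bovine arrays. They form 1 group with no treatment, genotype or sex in the labels, and only the label of animal 1 gives an age, about 2 years. The study's stated purpose was to correlate expression with beef traits. Those traits were not used here, and the adipokine genes are described by their level in each animal and by what varied with them. Each animal has 1 array, so a difference between 2 animals carries no error of its own, and the p-values rest on the spread between 10 samples that only their numbers and the series design mark as separate cattle.

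Fat cells sit between the fibre bundles of beef muscle, where they form marbling. ADIPOQ encodes adiponectin, which raises fatty acid use in muscle through the receptors ADIPOR1 and ADIPOR2 and also binds the cadherin CDH13. LEP encodes leptin, a signal of fat stores read by the receptor LEPR through JAK and STAT proteins. CFD encodes complement factor D, or adipsin, the protease that cuts factor B (CFB) to form the enzyme that activates C3 in the alternative complement pathway. RBP4 encodes the retinol carrier of the blood, made mostly by the liver and also by fat, which travels with transthyretin (TTR) and delivers retinol to cells through STRA6.

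Levels are log2(signal + 16) after quantile normalization, so all arrays share 1 distribution of values. The added 16 shrinks fold changes of dim genes. The 6271 genes with a mean over 6.98, the middle of the 24016 non-control probe sets, were tested. The arrays were alike in pattern, with pairwise correlations from 0.901 to 0.959. Animal 5 stood apart: for its spiked poly(A) RNAs, 3' minus 5' log2 signal was 2.80, against 1.09 to 1.38 in the other 9 animals. Results that rest on animal 5 are therefore given with and without it, except for the counts of small p by list. The muscle fibre list bore out the tissue label, with all 12 of its measured genes tested at means from 15.22 for DES to 16.05 for TNNC1. Of 25 adipocyte markers 21 were measured and 17 tested. FABP4, the fatty acid binding protein of fat cells, had a mean of 10.39, while PPARG, CEBPA, THRSP and ADRB3 were below the filter.

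ADIPOQ differed most between animals. Its level ran from 4.62 in animal 10 over a median of 7.25 to 9.47 in animal 9, a range of 4.85 on the log2 scale. Animals 4 and 6 followed at 8.68 and 8.46, animals 1, 3, 7 and 8 lay between 7.20 and 7.70, and animals 5 and 2 were low at 6.35 and 6.01. The deposited signals behind these values ran from 10.7 to 704, and since the lowest is under the added 16, no fold is given. The mean was 7.30 ± 1.41 (SD, n = 10), and 99.7% of tested genes had a smaller SD. Leaving out each animal in turn gave SDs from 1.11, without animal 10, to 1.5 without animal 1. Fewer fat cells in a sample and less ADIPOQ RNA per fat cell cannot be told apart in whole muscle.

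RBP4 and CFD varied less. RBP4 ran from 6.51 in animal 5 over a median of 7.77 to 9.34 in animal 9, with a mean of 7.85 ± 0.77 (SD, n = 10). Animals 3, 7 and 6 came next below animal 9, at 8.33, 8.29 and 8.26. CFD ran from 7.47 in animal 5 over a median of 9.07 to 9.90 in animal 6, with a mean of 9.02 ± 0.75 (SD, n = 10). Animal 1 stood at 9.88, close to animal 6, and animals 2 to 4 and 9 at 8.53 to 8.78. The animal with the poly(A) control signal that stood apart thus had the lowest value of both genes. Without animal 5 the SDs were 0.64 for RBP4 and 0.54 for CFD. The median SD over 6271 tested genes was 0.36.

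LEP was dim, and with no detection calls in the data used it cannot be said whether either of its probe sets was above background, which limits every LEP value here. Its brightest probe set ran from 4.70 in animal 2 over a median of 5.65 to 6.44 in animal 1, with a mean of 5.62 ± 0.57 (SD, n = 10). The other ran from 4.40 in animal 2 over a median of 4.77 to 6.91 in animal 9, with a mean of 5.06 ± 0.78 (SD, n = 10). Neither was above the filter in any of the 10 animals, so LEP was not among the tested genes. Both probe sets carry the LEP symbol, but they ordered the animals differently. Their r was -0.0773 (permutation p = 0.834, adjusted p = 0.958, and rho = -0.103 with permutation p = 0.781), and -0.0809 without animals 4 and 9, the 2 farthest from the median. Animal 9 was the highest for the dimmer LEP probe set, as it was for ADIPOQ and RBP4, but was sixth of 10 for the brighter.

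**Figure D1:**
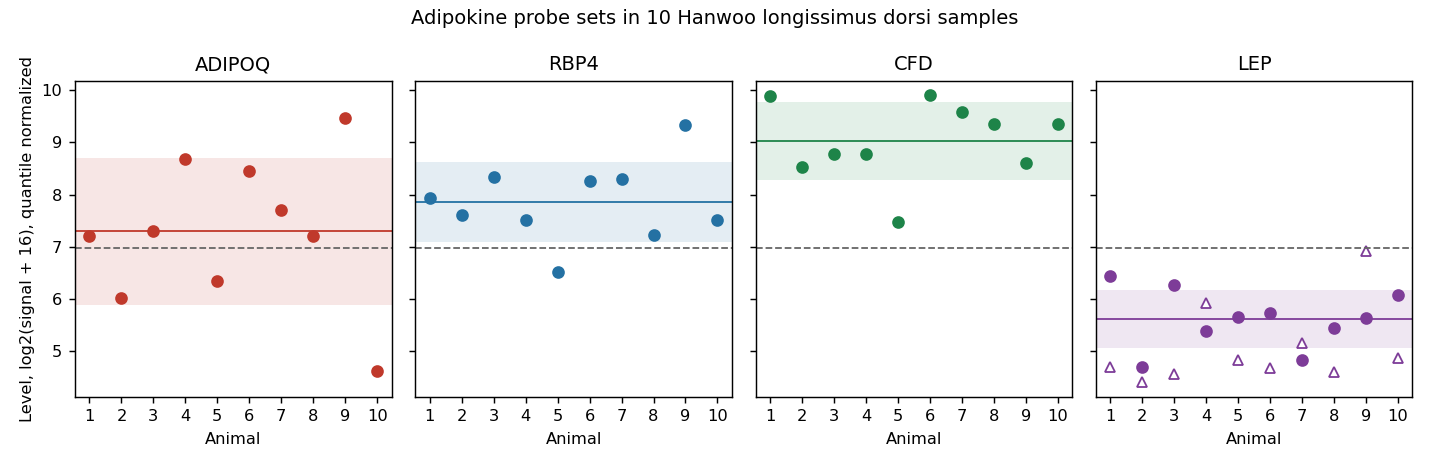
Level of each adipokine probe set in each of 10 animals, as log2(signal + 16) after quantile normalization. Filled circles are the brightest probe set of a gene, open triangles the other LEP probe set, the line and band the mean ± SD of the brightest, and the dashed line the filter at 6.98. ADIPOQ spans 4.62 to 9.47, animal 5 is lowest for RBP4 and CFD, and both LEP probe sets stay below the filter.

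The first question was whether the 4 genes varied together. They did so at most in part: no pair passed the adjusted threshold of 0.05. The 6 pairs were tested by permutation in a family of 30 correlations, the other 24 being those of each gene with 4 marker scores and 2 array measures. The largest r was that of ADIPOQ and RBP4, 0.611 (permutation p = 0.0595, adjusted p = 0.298, and rho = 0.503 with permutation p = 0.144, n = 10). It was 0.464 without animals 9 and 10 and 0.393 without animal 9 alone. Animal 9 was the highest for both genes, but animal 4, with the second highest ADIPOQ, had an RBP4 level of 7.51, below the RBP4 median.

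Whether CFD varies with ADIPOQ was not settled by these 10 animals. Their r was 0.109 (permutation p = 0.767, adjusted p = 0.953, and rho = 0.115 with permutation p = 0.762), 0.541 without animals 9 and 10 and -0.0968 without animal 5. Animals 9 and 4, the highest for ADIPOQ, had CFD levels of 8.60 and 8.77, below the CFD median, while animal 10, the lowest for ADIPOQ, had 9.36. RBP4 and CFD had r = 0.368 (permutation p = 0.296, adjusted p = 0.684, and rho = 0.285 with permutation p = 0.428), 0.310 without animals 5 and 9. Without animal 5 alone it was -0.151 and without animal 9 alone 0.706, so single animals set both its sign and its size.

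LEP, by its brightest probe set, had r = -0.0796 with ADIPOQ (permutation p = 0.826, adjusted p = 0.953, and rho = -0.164 with permutation p = 0.655), 0.158 without animals 9 and 10. With RBP4 it was 0.0870 (permutation p = 0.813, adjusted p = 0.953, and rho = 0.164 with permutation p = 0.656), 0.179 without animals 5 and 9. With CFD it was 0.203 (permutation p = 0.576, adjusted p = 0.823, and rho = 0.406 with permutation p = 0.245), 0.323 without animals 5 and 6. The other LEP probe set, a comparison made after seeing the data, had r = 0.657 with ADIPOQ (permutation p = 0.0425, adjusted p = 0.212, and rho = 0.491 with permutation p = 0.157). That value was 0.445 without animal 9 and 0.0429 without animals 4 and 9, so it rests on the 2 animals in which that probe set was highest.

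**Figure D2:**
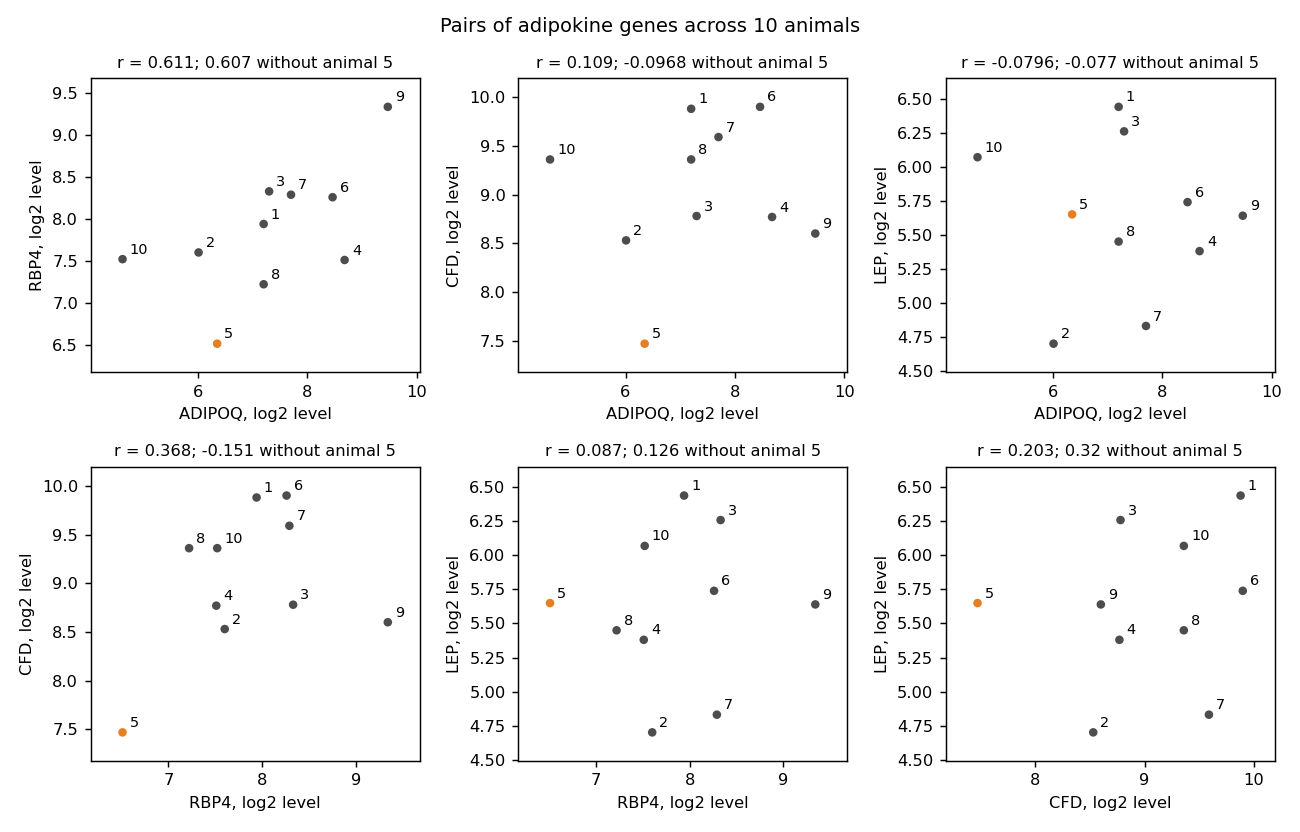
Log2 levels of each pair of adipokine genes in 10 animals, each point labelled with its animal, animal 5 in orange. ADIPOQ and RBP4 have r = 0.611, and the r of RBP4 and CFD is 0.368, which is -0.151 without animal 5 and 0.706 without animal 9.

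The next comparison asked whether each gene varied with markers of the cells that could make it. Each score averages the tested genes of a list, after each was centred on its own mean across animals. The genes were not scaled to equal spread, so those with a large SD weigh most. Whole muscle does not show which cells a transcript came from, so a score is no count of cells. PPARG, CEBPA, THRSP and ADRB3, below the filter, are not in the adipocyte score. ADIPOQ rose with the adipocyte score by rank: rho was 0.915 (permutation p = 0.00057, adjusted p = 0.0171), while Pearson's r of 0.838 missed the adjusted threshold (permutation p = 0.00294, adjusted p = 0.0882, n = 10). Without animals 9 and 10, r was 0.866. The score ran from -0.52 in animal 2 to 0.80 in animal 9. FABP4, G0S2 and CIDEC, with SDs of 1.62, 1.24 and 1.16, weigh most in it. Their r with ADIPOQ was 0.824, 0.898 and 0.803. The list was chosen with earlier results of these data known, so its p-values are not those of a list fixed beforehand. Slopes on ADIPOQ were above 0 for 13 of the 17 genes. For AGPAT2, PCK1, ACSL1 and PNPLA2, r was -0.00794, -0.073, -0.0454 and -0.356. Animal 10 lay below the others' line, with a score of -0.29 and by far the lowest ADIPOQ. Without it r was 0.920 (exact permutation test, adjusted p = 0.0145), and without animal 9, the highest, 0.769 (exact permutation test, adjusted p = 0.239).

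For RBP4 and the adipocyte score, r was 0.790 (permutation p = 0.0076, adjusted p = 0.114, and rho = 0.648 with permutation p = 0.0478), 0.558 without animals 5 and 9. CFD had r = 0.129 with it (permutation p = 0.715, adjusted p = 0.945, and rho = 0.309 with permutation p = 0.389), -0.196 without animals 5 and 6. LEP had r = -0.00699 (permutation p = 0.985, adjusted p = 0.994, and rho = -0.0545 with permutation p = 0.891), -0.269 without animals 2 and 7. The other LEP probe set had r = 0.840 (permutation p = 0.00344, adjusted p = 0.0516, and rho = 0.636 with permutation p = 0.056), 0.622 without animal 9. Whether the correlations of the 4 genes with this score differ from each other was not tested.

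Macrophage and leukocyte markers did not pass with any adipokine gene over the 10 animals. Their score had r = 0.681 with ADIPOQ (permutation p = 0.0293, adjusted p = 0.176, and rho = 0.758 with permutation p = 0.015), 0.845 without animals 9 and 10, and without animal 10 alone r was 0.870 (exact permutation test, adjusted p = 0.0496). Without animal 9 alone it was 0.582 (exact permutation test, adjusted p = 0.331). With RBP4 it was 0.728 (permutation p = 0.0207, adjusted p = 0.174, and rho = 0.370 with permutation p = 0.298), 0.322 without animals 5 and 9. Of 18 such markers 15 were measured and 8 tested, and the score ran from -0.88 in animal 5 to 0.82 in animal 6. The connective tissue score had r = 0.549 with ADIPOQ (permutation p = 0.0966, adjusted p = 0.333, and rho = 0.721 with permutation p = 0.0225), 0.559 without animals 9 and 10. The part of these cells in the ADIPOQ and RBP4 values was not tested.

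RBP4 is also made by the liver, and the score of liver-made plasma proteins was high in animals 3 and 7. It was 2.27 and 2.06 there, against -1.51 to 0.59 in the others. FGG, TF and HP, with SDs of 2.86, 2.60 and 2.44, weigh most in this score. In animals 3 and 7, TF was at 11.37 and 11.25 (mean 7.24) and APOA1 at 8.81 and 8.26 (mean 7.42). ALB, the brightest of the list, was at 10.75 and 10.73, below its mean of 11.15. RBP4 had r = 0.258 with that score (permutation p = 0.467, adjusted p = 0.823, and rho = 0.273 with permutation p = 0.448), 0.415 without animals 5 and 9. It was 0.0103 without animal 5 alone, 0.581 without animal 9 alone and -0.0411 without animals 3 and 7. Those 2 animals followed animal 9 for RBP4, at 8.33 and 8.29. TTR, the carrier partner of RBP4, was below the filter at a mean of 5.96.

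Of the array measures, 1 passed a test with an adipokine gene, by rho and not by r, which were adjusted as separate families. LEP rose by rank with the level of the hybridization controls, RNAs added at a fixed amount, with rho = 0.855 (permutation p = 0.00295, adjusted p = 0.0442). Pearson's r was 0.705 (permutation p = 0.0232, adjusted p = 0.174), 0.693 without animals 2 and 7, and 0.881 without animals 3 and 7 (exact permutation test, adjusted p = 0.000744, the smallest that the permutations of the other 8 animals can give). Without animal 2 it was 0.558 (exact permutation test, adjusted p = 0.376), and with both LEP probe sets averaged 0.202 (permutation test, adjusted p = 0.732). The other LEP probe set had r = -0.273 with it (permutation p = 0.464, adjusted p = 0.642, and rho = 0.0545 with permutation p = 0.891), 0.477 without animals 4 and 9. The r of CFD with the poly(A) 3' minus 5' value was -0.622 (permutation p = 0.0999, adjusted p = 0.333, and rho = 0.297 with permutation p = 0.408), 0.805 without animals 5 and 6. Without animal 5 alone it was 0.808 (exact permutation test, adjusted p = 0.114), so its sign is that of animal 5 against the rest. RBP4 had r = -0.604 with the poly(A) value (permutation p = 0.142, adjusted p = 0.386, and rho = -0.236 with permutation p = 0.514). That r was 0.138 without animals 5 and 9 and -0.00031 without animal 5 alone. CFD and the hybridization controls had r = 0.405 (permutation p = 0.246, adjusted p = 0.615, and rho = 0.576 with permutation p = 0.0873), 0.758 without animals 5 and 6. Without animal 5 alone it was 0.800 (exact permutation test, adjusted p = 0.114). The part of these measures in the RBP4, CFD and LEP values was not tested.

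**Figure D3:**
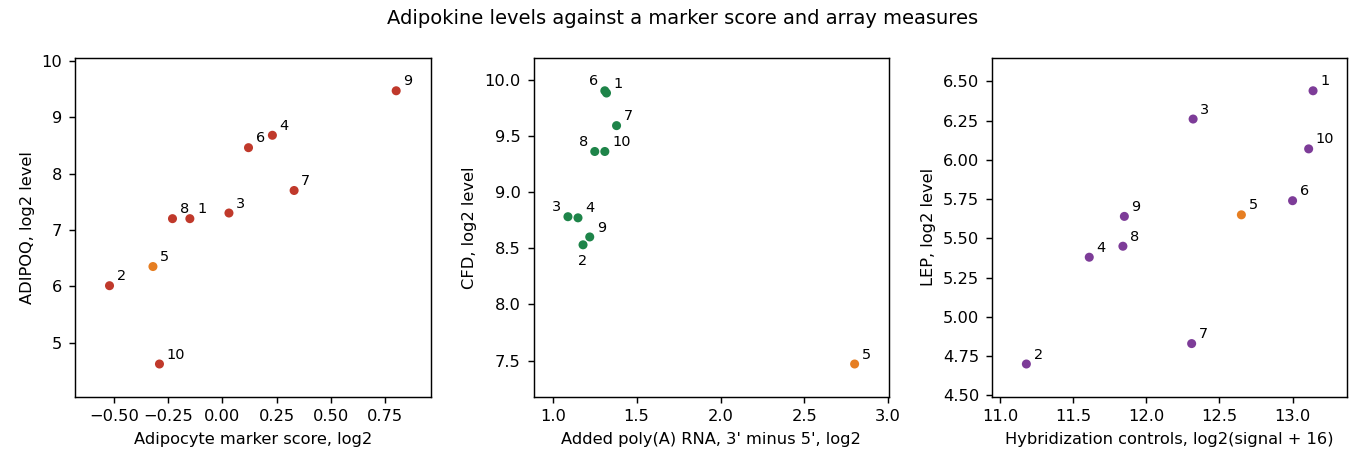
Log2 level of ADIPOQ against the adipocyte marker score, of CFD against the 3' minus 5' signal of added poly(A) RNA, and of LEP against the level of the hybridization controls, in 10 animals labelled by number, animal 5 in orange. ADIPOQ rises by rank with the score (rho = 0.915), CFD has r = -0.622, which is 0.808 without animal 5, and LEP rises by rank with the controls (rho = 0.855).

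Each adipokine gene was then used as the covariate of a limma fit over all tested genes, with the slope in log2 per SD of the adipokine. No gene passed at an adjusted p below 0.05, in either direction, in any of the 4 fits: 0 of 6270 (0%) for ADIPOQ, RBP4 and CFD, and 0 of 6271 (0%) for LEP. A Spearman correlation per gene also called 0 in each. At an unadjusted p below 0.05 limma had 370 genes (5.90%) for ADIPOQ, 912 (14.5%) for RBP4, 929 (14.8%) for CFD and 135 (2.15%) for LEP, and the Spearman correlation had 418, 458, 384 and 205. The RBP4 and CFD counts rest on animal 5, since without it they were 319 (5.09%) and 371 (5.92%). The ADIPOQ count was 467 (7.45%) without animal 5. Among the adipokines themselves, RBP4 had a slope of 0.47 on ADIPOQ (SE 0.18, limma p = 0.0247, adjusted p = 0.737) and CFD 0.08 (SE 0.22, adjusted p = 0.992).

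G0S2 came closest to the ADIPOQ pattern. It encodes an inhibitor of the lipase that starts triglyceride breakdown, and is 1 of the 17 tested adipocyte markers. Its level ran from 6.58 in animal 2 over a median of 8.08 to 10.25 in animal 9, and animals 9, 6 and 4 were the highest for both genes, in another order. The slope was 1.11 (SE 0.17, limma adjusted p = 0.116), with rho = 0.976. It passed without animal 10 (slope 1.16, limma adjusted p = 0.0126) and with a pseudocount of 64 (1.0, adjusted p = 0.014), the only gene to do so, and not otherwise. Other slopes on ADIPOQ with a small p were those of AK4, a mitochondrial adenylate kinase (0.63, adjusted p = 0.399), and FABP4 (1.34, adjusted p = 0.399). FABP4 ran from 7.72 in animal 2 over a median of 10.77 to 13.06 in animal 9.

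By Pearson's r over the 10 animals, the 5 tested genes most like ADIPOQ were G0S2 (0.898), AK4 (0.873), the sodium pump regulator FXYD6 (0.870), the fibril-associated collagen COL12A1 (0.868) and RTN4IP1 (0.864). Without animal 5 these were 0.858 to 0.933. The slopes of RTN4IP1, FXYD6 and G0S2 were lowest without animal 9, at 0.25, 0.28 and 0.94, against 0.38, 0.32 and 1.11 over all animals. That of AK4 was lowest without animal 4 (0.53, against 0.63) and that of COL12A1 without animal 6 (0.47, against 0.55). The smallest p with a negative slope belonged to the deubiquitinase gene JOSD1 (-0.42, adjusted p = 0.456), FAM118A (-0.37, adjusted p = 0.456) and the cyclin gene CCNL1 (-0.42, adjusted p = 0.543). JOSD1 and CCNL1 were highest in animal 10, the animal lowest for ADIPOQ, and without it their slopes were -0.24 and -0.25. These genes are the extremes of 6270, and none passed.

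**Figure D4:**
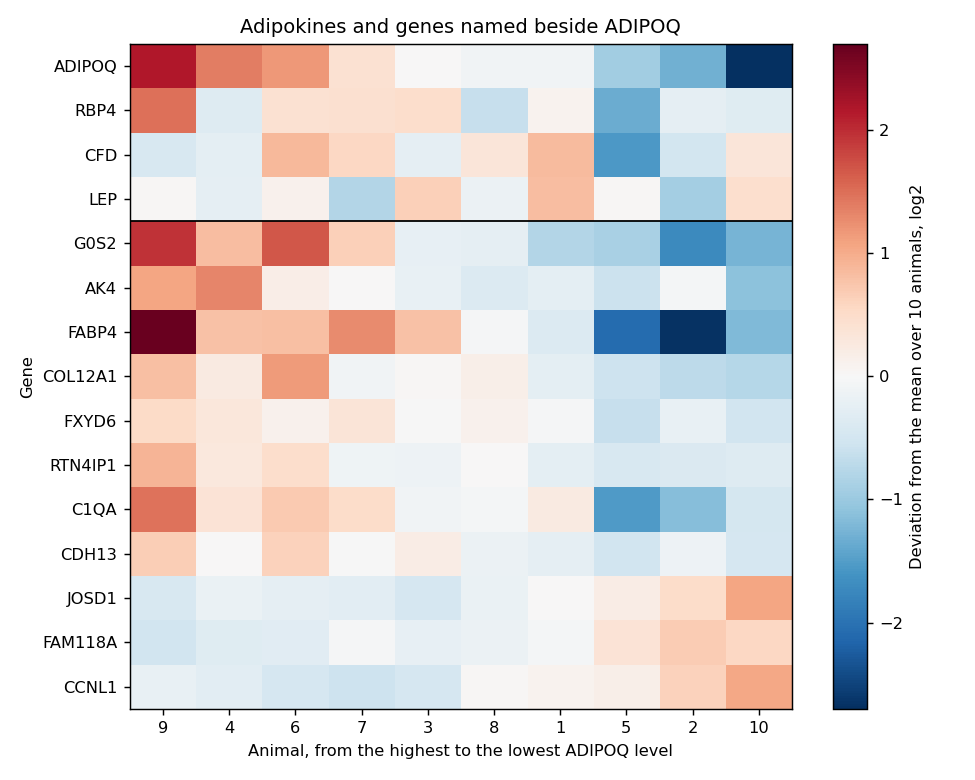
Deviation of each gene from its mean over 10 animals, on the log2 scale, with animals ordered from the highest to the lowest ADIPOQ level. The 4 adipokines are above the line, and G0S2, FABP4 and other genes named beside ADIPOQ below it. Animals 9, 4 and 6 are above the mean for ADIPOQ, G0S2, AK4 and FABP4, while RBP4, CFD and LEP order the animals in other ways.

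The genes most like RBP4 were OSMR, the oncostatin M receptor (r = 0.960), the ceramide synthase CERS2 (0.952), PGD of the pentose phosphate pathway (0.942), the receptor tyrosine kinase RET (0.940) and the ribosomal protein gene RPL3 (0.908). All 5 were lowest in animal 5 and highest in animal 9, as RBP4 was. Without animal 5 their r ran from 0.902 to 0.936. Without animal 9 the slopes fell from 0.54 to 0.32 for RPL3 and from 0.34 to 0.21 for PGD. They fell from 0.49 to 0.36 for RET and from 0.31 to 0.23 for OSMR. The CERS2 slope of 0.30 was lowest without animal 5, at 0.23. RET ran from 7.86 over a median of 8.73 to 9.80, and its slope was 0.49 (SE 0.08, limma adjusted p = 0.13). LOC504773 (0.78) and the calcium binding gene S100A11 (0.73) also had limma adjusted p = 0.13, with slopes of 0.53 and 0.46 without animal 5. The clock gene PER2 (-0.50), METAP1 (-0.42) and the calcium channel subunit gene CACNG6 (-0.40) had the smallest p with a negative slope, all with adjusted p = 0.14 and all highest in animal 5, without which the CACNG6 slope was -0.24.

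Genes most like CFD were PDCL3 (r = 0.927), PRELID1 (0.909), FMC1 (0.906), ALKBH7 (0.903) and COA1 (0.903). All were lowest in animal 5, and without it their r ran from 0.793 to 0.855. ENC1 (0.52), C10H15orf48 (0.99) and the dynein light chain gene DYNLL1 (0.54) had the smallest p with a positive slope. The calcineurin subunit gene PPP3CC (-0.51), TPPP (-0.64) and HEXIM1 (-0.53), an inhibitor of transcription elongation, had those with a negative slope, all 6 with limma adjusted p = 0.174. Without animal 5 the slope of ENC1 was 0.33, that of C10H15orf48 0.43, that of DYNLL1 0.23, that of PPP3CC -0.25 and that of HEXIM1 -0.21.

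The genes most like the brightest LEP probe set were PRLH (r = 0.863), NGEF (0.859), the proteasome subunit gene PSMC2 (0.816), ZPR1 (0.790) and the replication gene MCM3 (0.781). PRLH had a slope of 0.55, NGEF 0.47 and MCM3 0.36, while MIGA2 (-0.34), TRIM45 (-0.47) and SMCO4 (-0.45) had the smallest p with a negative slope. The limma adjusted p was 1 for all 6. Without animal 2, the lowest for LEP and PRLH, the PRLH slope was 0.31.

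Among the adipocyte markers, 13 of 17 slopes on ADIPOQ were above 0, with a median of 0.18, against 55.4% of all 6270 genes and a median of 0.02. An unadjusted p below 0.05 was found for 7 of the 17, all with positive slopes, where 5.90% of all genes had one, and 0 passed the adjustment. FABP4 had the largest slope and the lipase gene PNPLA2 the smallest, at -0.17. CD36, the fatty acid transporter and the brightest of the list, had 0.16. On RBP4, 14 of 17 slopes were above 0 (median 0.28), and 15 without animal 5 (median 0.17). An unadjusted p below 0.05 was found for 8, beside 14.5% of all genes (5.09% without animal 5). These 8 were counted with animal 5 included. On CFD 9 of 17 slopes were above 0 (median 0.08, -0.02 without animal 5). On LEP 8 were (median 0.00). Over all tested genes 54.9% of slopes were above 0 on RBP4, 52.7% on CFD and 48.3% on LEP. These shares, and the 55.4% on ADIPOQ, are also the background for the lists below.

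Macrophage and leukocyte markers had 8 of 8 slopes above 0 on ADIPOQ (median 0.33), on RBP4 (0.32) and on CFD (0.29), and 7 of 8 on LEP (0.12). Without animal 5 the median was 0.23 on RBP4 and 0.10 on CFD. On ADIPOQ, 4 of the 8 had an unadjusted p below 0.05, beside 5.90% of all genes. On RBP4 4 did, with animal 5 included, beside 14.5% of all genes (5.09% without animal 5). All of these slopes were positive. C1QA, a chain of the first complement component, was the brightest, with the largest slope on ADIPOQ (0.70, limma adjusted p = 0.456), and the macrophage growth factor receptor CSF1R had the smallest, 0.07, which was 0.41 without animal 10 and -0.03 without animal 5. Connective tissue genes had 12 of 15 slopes above 0 on ADIPOQ (median 0.39) and 13 of 15 on RBP4 (0.26), with the proteoglycan LUM at 0.67 (0.40 without animal 10), the collagen COL3A1 at 0.26 and the growth factor receptor PDGFRA at -0.10 on ADIPOQ. Without animal 5 the RBP4 median was 0.24. On CFD the median was 0.09, and -0.05 without animal 5. On LEP 3 of 15 were above 0 (median -0.05). Of the 15 connective tissue genes, 7 had an unadjusted p below 0.05 on ADIPOQ and 6 on RBP4, all with positive slopes. The same shares of all genes, 5.90% and 14.5%, stand beside these counts. A large share with a small p was thus not particular to the adipocyte markers.

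Liver-made plasma protein genes had 2 of 9 slopes above 0 on ADIPOQ (median -0.11), from transferrin (TF) at -0.98 (SE 0.68, limma adjusted p = 0.937, slope -0.56 without animal 9) to APOA1 at 0.27, with ALB at -0.05. The ALB slope was 0.14 and the APOA1 slope -0.04 without animal 10. On RBP4 9 of 9 were above 0 (median 0.21) and on CFD 9 of 9 (median 0.29), but without animal 5 these were 4 (median -0.05) and 3 (median -0.08). Over all tested genes the shares above 0 without animal 5 were 51.5% on RBP4 and 47.1% on CFD. Muscle fibre genes lie at the top of the array's scale, TNNC1 being at its highest level, 16.07, in 8 of 10 animals, with SDs from 0.04 to 0.17, where a change can hardly show, so their slopes say little. They were 0.03 for MYH7, -0.01 for TNNC1 and -0.03 for MB on ADIPOQ, with list medians from 0.00 to 0.01 on all 4 adipokines.

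**Figure D5:**
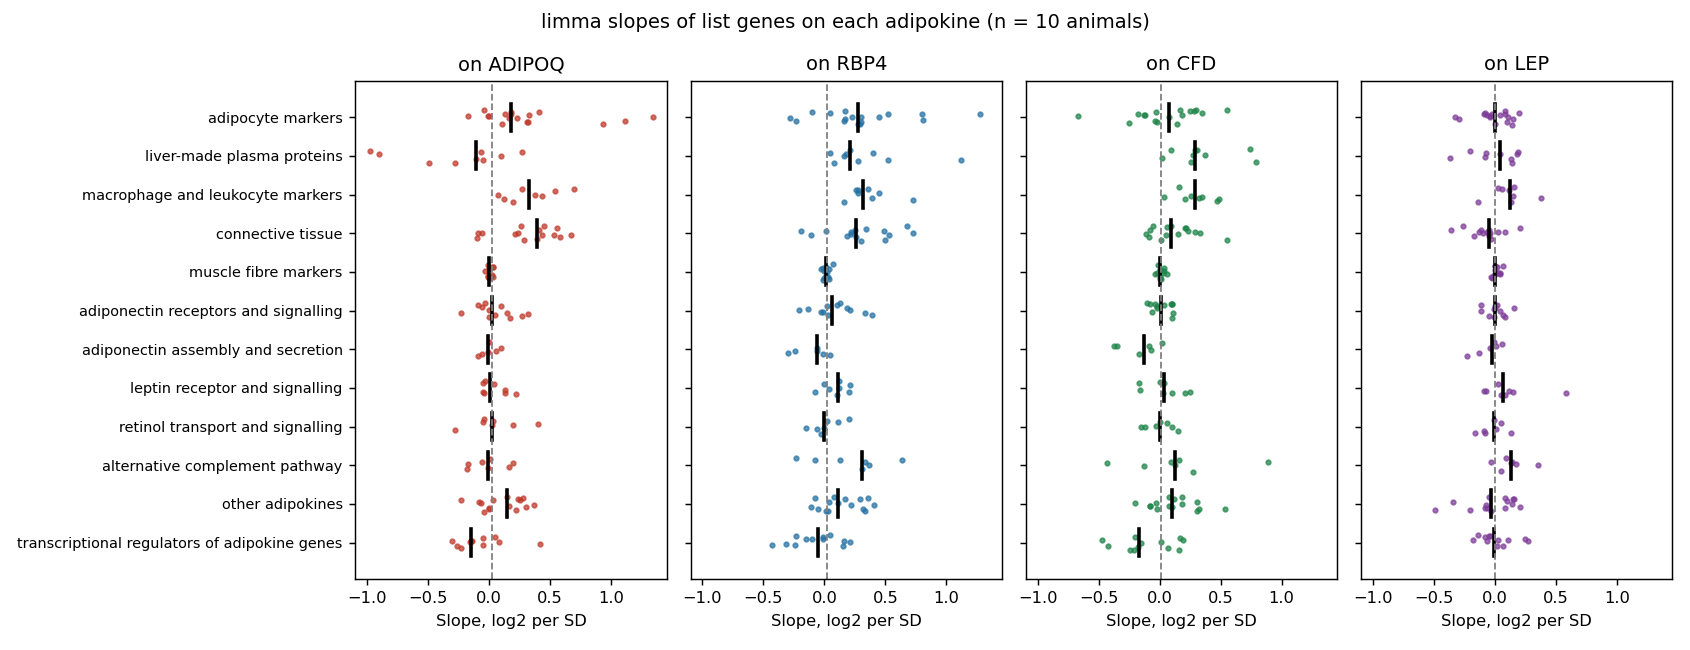
limma slopes of the tested genes of each list on ADIPOQ, RBP4, CFD and LEP, in log2 per SD of the adipokine over 10 animals. Points are genes, black bars list medians and the dashed line the median over all tested genes. On ADIPOQ the connective tissue (0.39), macrophage and leukocyte (0.33) and adipocyte (0.18) lists have the highest medians. Muscle fibre genes, at the top of the array's scale, could hardly show a slope.

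None of the tested receptor and signalling genes of adiponectin passed with ADIPOQ. Of 18 listed genes 13 were measured and 12 tested, the AMPK subunit gene PRKAA2 being below the filter at a mean of 4.96. ADIPOR1 had a level of 11.28 ± 0.21 (SD, n = 10), from 10.87 to 11.51, and ADIPOR2 9.87 ± 0.52, from 8.93 to 10.53. Their slopes on ADIPOQ were -0.03 (SE 0.09) and 0.15 (SE 0.16), with limma adjusted p = 0.992 for both. CDH13, at 11.01 ± 0.40, ran from 10.49 in animal 5 to 11.66 in animal 9 and had a slope of 0.32 (SE 0.10, p = 0.00518, adjusted p = 0.639). It and PRKAA1, another AMPK subunit gene (0.27), were the 2 of 12 with an unadjusted p below 0.05, beside 5.90% of all genes. Slopes were above 0 for 8 of 12, beside 55.4% of all genes, and the median was 0.03. PPARA, a receptor of fatty acids, had the smallest slope, -0.23, and CPT1B, the brightest and the gate of mitochondrial fatty acid entry, 0.00. Genes that fold and modify adiponectin had 3 of 6 slopes above 0 (median 0.00), from the lysyl hydroxylase PLOD1 at -0.09 to GSTK1 at 0.10, with the disulfide isomerase P4HB at -0.01.

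LEPR, the leptin receptor, was below the filter with a level of 5.32 ± 0.57 (SD, n = 10), from 4.37 to 6.14. The same locus also yields LEPROT, a protein of receptor traffic, which stood at 8.90 ± 0.30 and had a slope of 0.08 on LEP (SE 0.11, limma adjusted p = 1). Of 15 genes of the leptin list 10 were measured and 8 tested. Of these 6 had slopes on LEP above 0 (median 0.07), beside 48.3% of all genes. An unadjusted p below 0.05 was found for 0, beside 2.15% of all genes. CISH, a feedback inhibitor of JAK and STAT signalling, had the largest at 0.58 (SE 0.31, adjusted p = 1), which was 0.28 without animal 1, and SH2B1, a JAK2 adaptor, the smallest at -0.09. PTPN2, a phosphatase of the pathway and the brightest, had 0.12.

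For retinol, 12 of 23 listed genes were measured and 7 tested. The RBP4 receptor gene STRA6 was just below the filter at 6.96 ± 0.62 (SD, n = 10), from 5.30 to 7.51. Of the 7, 3 had slopes on RBP4 above 0 (median 0.00), beside 54.9% of all genes. An unadjusted p below 0.05 was found for 0, beside 14.5% of all genes. The brightest was ALDH1A1, which oxidises retinal, at 12.01 and a slope of 0.11, which was 0.44 without animal 5 and -0.01 without animal 9. DHRS3, which reduces retinal back to retinol, had 0.20 (0.00 without animal 5) and the retinoid receptor RXRA -0.15.

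For the alternative complement pathway, 15 of 19 listed genes were measured and 7 tested. Slopes on CFD were above 0 for 5 of 7 (median 0.13, 0.06 without animal 5), beside 52.7% of all genes. Of the 7, 2 had an unadjusted p below 0.05 with opposite signs, beside 14.8% of all genes (5.92% without animal 5). They were C3, at 0.89 (SE 0.30, limma p = 0.0114, adjusted p = 0.237), and MASP1, at -0.43 (p = 0.0166, adjusted p = 0.249). C3 ran from 7.88 in animal 5 over a median of 10.41 to 12.54 in animal 7, and its slope was 0.30 without animal 5; that of MASP1 was then -0.07. CFB, the substrate of CFD, stood at 7.90 ± 0.98 (SD, n = 10) with a slope of 0.27 (adjusted p = 0.649). CD46, a membrane regulator of complement and the brightest, had -0.13, and 0.08 without animal 5.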

How the data were processed

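Poly(A) RNA of 10 muscle samples was labelled with biotin and hybridised to 1-colour Affymetrix bovine arrays, per the labels' protocols. As deposited, each array has 1 intensity for every probe set, on a linear scale; the software that made it is not given in the sources used. The trimmed mean per array, without the lowest and highest 2%, lay between 500.177 and 500.203, and array medians between 111.0 and 134.0. The number of arrays limits the precision.

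The 112 control probe sets were left out, intensities were turned into log2(signal + 16) and quantile normalized, since array medians spanned 0.24. Gene symbols came from the platform annotation. The 4 symbols matched the ARS-UCD2.0 gene table, used for names only. Fits used limma 3.58.1 (R 4.3.3) and Benjamini-Hochberg adjustment over all tested genes, and correlations two-sided permutation tests with 100000 resamples, or all permutations with 9 or fewer animals. Correlations were adjusted over their family of 30, separately for r and for rho. Each pair could thus pass by either, and no adjustment was made over both. The poly(A) measure is the mean 3' minus 5' difference over 8 control transcript pairs, the hybridization level the mean over 18 probe sets.

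On simulated data of independent genes, limma recovered 65% of slopes of 0.5 and 95% of slopes of 1 for ADIPOQ over 6270 genes, with 11 of 171 calls false. For RBP4 these were 62% and 94% over 6270 genes, for CFD 56% and 96% over 6270 genes and for LEP 52% and 91% over 6271 genes. Real genes vary together, so these shares need not hold for them. The slopes were also added on top of each gene's whole observed SD, of which the median was 0.36. A slope per SD of the adipokine cannot exceed the SD of the gene, so most tested genes could not reach 0.5. In the data, G0S2 with a slope of 1.11 and FABP4 with 1.34 on ADIPOQ did not pass. The shares are thus no measure of the power in these data.

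The 4 genes and the 12 lists, of 226 entries, were chosen with earlier results of these data known. Genes were named by a rule: for each fit, where fewer than 5 genes passed, the 3 of smallest p among positive and among negative slopes and the 5 with the highest r; from each list the brightest and those with the largest and smallest slope, and every tested receptor. Others, such as CFB, LEPR, TTR, STRA6 and PRKAA1, were named for their role, and TIMP1 and NR3C1 for a p below 0.05 in their list. Alternatives were the deposited scaling, median centring, pseudocounts of 1 and 64, dropping the filter or raising it to percentile 75, averaging the probe sets of each gene, leaving out each animal, leaving out animals 3 and 7, or 3, 5 and 7, the poly(A) measure as covariate, and a Spearman correlation per gene. The other LEP probe set in place of the brightest was added after seeing the data.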

Additional observations from a re-analysis of the deposited data

Results flagged for a closer look

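Of 85 sets of 10 values checked, 10 had a highest or lowest animal whose gap to the next was large against the whole range, and in 9 of the 10 it was animal 5. Chance flags about 1 in 20 such sets, and the genes checked here were named partly for their extreme slopes, so they are not independent. None of the 5 adipokine probe sets was among them. The poly(A) control difference of animal 5 was 2.80, the next 1.38. Among genes named beside CFD, animal 5 had the lowest C10H15orf48 (4.77, next 6.73), DYNLL1 (10.43, next 11.71), PDCL3 (10.32, next 10.70), ALKBH7 (9.57, next 10.63) and COA1 (9.66, next 10.67). It had the highest PPP3CC (10.85, next 9.70), HEXIM1 (12.92, next 11.70) and PLOD1 (11.50, next 10.53). Animal 2 had the lowest PRLH (5.91, next 7.12). The poly(A) controls are added RNAs, so their difference does not measure the state of the muscle RNA itself. The part of RNA quality or of sample processing in these values was not tested.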

How the results depend on the processing

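No paired analysis was possible because the samples form 1 group. Of 545 values of r under alternatives, 475 kept their sign and side of the threshold, 64 changed sign and 6 crossed the threshold; of 1446 slopes these were 1403, 41 and 2. No pair of adipokine genes passed under any alternative. The levels of ADIPOQ, RBP4 and CFD moved by less than their SD between animals. Leaving out each animal in turn, the SD ran from 1.11 to 1.5 for ADIPOQ, 0.60 to 0.81 for RBP4 and 0.54 to 0.79 for CFD. For LEP, near the floor of the scale, the level was 5.01 with a pseudocount of 1 and 6.63 with 64, and the SD 0.88 and 0.28. The cause of the changes below was not tested.

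With a pseudocount of 64, 1 gene varied with ADIPOQ (G0S2, slope 1.0), the r of ADIPOQ with adipocyte markers passed (0.885), that of LEP with plasma proteins was 0.0634 and with the poly(A) difference -0.0188, and the slopes of P4HB and CST3 were 0.00 and 0.01. With a pseudocount of 1, r of LEP with adipocyte markers was 0.0365 and the CPT1B slope -0.02. With median centring, r of ADIPOQ with adipocyte markers passed (0.852), r of RBP4 with LEP was -0.0331, and the slopes of MYH7, CST3 and LEPROT were -0.08, 0.01 and -0.01. With the deposited scaling, MYH7 had -0.05 and CST3 0.02. With probe sets averaged per gene, LEP had r = 0.503 with ADIPOQ, -0.0419 with CFD, 0.698 with adipocyte markers, 0.0659 with connective tissue and -0.0967 with the poly(A) difference, and the slopes of TNNC1, MYH7, SH2B1 and CD46 were 0.00, -0.01, 0.03 and 0.05. With the other LEP probe set these r were 0.657, -0.198, 0.840, 0.243 and -0.122, and -0.273 with the hybridization controls.

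Without animals 3 and 7, r of RBP4 with plasma proteins was -0.0411, and LEP had 0.156 with adipocyte markers, 0.0872 with plasma proteins and 0.881, which passed, with the hybridization controls. Without animals 3, 5 and 7, CFD had r = -0.131 with ADIPOQ, -0.161 with RBP4, -0.225 with adipocyte markers, -0.0577 with plasma proteins, -0.0187 with connective tissue and 0.882 with the poly(A) difference. RBP4 had -0.562 with plasma proteins, 0.0473 with the poly(A) difference and 0.0702 with the hybridization controls, and LEP 0.166 with adipocyte markers, 0.113 with plasma proteins and 0.894, which passed, with the hybridization controls. The slopes of CSF1R, PLOD1 and CD46 were -0.06, 0.01 and 0.10. With the poly(A) difference as covariate, CFD had r = -0.0687 with ADIPOQ, -0.0128 with RBP4, -0.0662 with adipocyte markers and -0.0241 with connective tissue, RBP4 0.156 with the hybridization controls and LEP 0.00119 with plasma proteins. The slopes of CSF1R, P4HB, PLOD1, DHRS3 and CD46 were -0.03, 0.01, 0.00, -0.01 and 0.05.

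Leaving out each animal in turn, the genes that varied with ADIPOQ numbered 0 to 1, the 1 being G0S2 without animal 10 (slopes 0.94 to 1.18). For ADIPOQ r ran from -0.0968 to 0.294 with CFD, -0.339 to 0.154 with LEP, 0.769 to 0.920 with adipocyte markers, 0.582 to 0.870 with macrophage markers and -0.579 to 0.0346 with the hybridization controls. For RBP4 it ran from -0.151 to 0.706 with CFD and -0.143 to 0.156 with the hybridization controls. For CFD it ran from -0.0048 to 0.395 with LEP, -0.132 to 0.406 with adipocyte markers, -0.0497 to 0.498 with plasma proteins, -0.0811 to 0.618 with connective tissue and -0.685 to 0.808 with the poly(A) difference. For LEP it ran from -0.383 to 0.170 with adipocyte markers, -0.343 to 0.373 with plasma proteins, -0.011 to 0.30 with macrophage markers, -0.279 to 0.261 with connective tissue and -0.0975 to 0.109 with the poly(A) difference. Slopes that changed sign ran from -0.14 to 0.14 for ALB, -0.04 to 0.40 for APOA1, -0.03 to 0.41 for CSF1R, -0.02 to 0.01 for TNNC1, -0.05 to 0.12 for CPT1B, -0.14 to 0.05 for P4HB, -0.18 to 0.00 for PLOD1, -0.01 to 0.44 for ALDH1A1, 0.00 to 0.29 for DHRS3, -0.20 to 0.08 for CD46, -0.04 to 0.07 for CST3 and -0.30 to 0.13 for C1QTNF5.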

Other observations

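Of 12 tested transcription factor genes known to act on adipokine genes, none passed the adjusted limma threshold with any of the 4 adipokines. On ADIPOQ, 3 had slopes above 0 (median -0.15), beside 55.4% of all genes. An unadjusted p below 0.05 was found for 0, beside 5.90% of all genes. CEBPD, an early factor of fat cell formation, was the brightest at 12.11 ± 0.75 (SD, n = 10) and had the smallest slope, -0.30 (SE 0.21, limma adjusted p = 0.931), which was -0.19 without animal 6. SREBF2, a regulator of sterol synthesis, had the largest, 0.42 (SE 0.22, adjusted p = 0.863), which was 0.17 without animal 10. PPARG and CEBPA were below the filter, at 6.72 ± 0.81 and 6.15 ± 0.87. On RBP4, 4 of the 12 had slopes above 0 (median -0.05, -0.07 without animal 5), beside 54.9% of all genes. An unadjusted p below 0.05 was found for 1, with animal 5 included, beside 14.5% of all genes (5.09% without animal 5). It was NR3C1, the glucocorticoid receptor, at -0.43 (limma p = 0.000924, adjusted p = 0.145).

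Among 15 other tested genes of secreted proteins known as adipokines, 9 had slopes on ADIPOQ above 0 (median 0.15), beside 55.4% of all genes. Only the protease inhibitor gene TIMP1, at 0.30 (limma adjusted p = 0.738), had an unadjusted p below 0.05, 1 of 15 beside 5.90% of all genes. VEGFA, the vascular growth factor, had the largest slope, 0.37 (adjusted p = 0.854). C1QTNF5, a protein of the adiponectin family, had the smallest, -0.23, which was 0.13 without animal 10. CST3, the brightest, had 0.00. RETN, IL6 and TNF were below the filter at 5.59 ± 0.61, 4.73 ± 0.46 and 6.49 ± 0.71 (SD, n = 10).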
